A study of Canis lupus familiaris with 13 samples.

Results

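The major histocompatibility complex (MHC) class II genes of the dog, with their transcriptional regulator CIITA and the invariant chain gene CD74, were followed through 13 tumor biopsies. They were taken as every row of the count table whose symbol began with DLA-D or HLA-D, plus CIITA and CD74, which gave 10 of 43427 gene symbols. These were the antigen-presenting chain genes DLA-DRA, HLA-DRB1, DLA-DQA1, and DLA-DQB1, the accessory chain genes DLA-DMA, DLA-DMB, DLA-DOA, and DLA-DOB, and CIITA and CD74. All 10 were among the 20118 genes with enough counts to be tested.

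MHC class II molecules carry peptides from engulfed material to the surface of macrophages, dendritic cells, and B cells, where CD4+ T cells read them. An alpha and a beta chain are assembled with the invariant chain, which fills the groove until it is degraded in the endosome, and the DM molecule then exchanges its remnant for a peptide while DO restrains DM. CIITA is recruited to the shared promoter elements of these genes and is known as their master regulator. It is itself inducible by interferon gamma, and some tumor cells and activated epithelium can also express class II.

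The study injected IMAX, a nanoparticle of a polyethyleneimine–lithocholic acid conjugate carrying paclitaxel and a cyclic dinucleotide that stimulates STING, into spontaneous tumors of companion dogs. All 3 dogs were female and all received IMAX, so no untreated tumor was sampled and each tumor was its own baseline. Dog RV, a spayed mixed breed, had a soft tissue sarcoma of the hock; dog CL, an intact Shih Tzu, had a cranial and a caudal mammary carcinoma; and dog BM, a spayed Great Pyrenees, had a left caudal mammary carcinoma. The question addressed here is how the genes of class II presentation stood before treatment, early after it, and late after it in each tumor.

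The before group held 4 biopsies, 1 from each tumor. The early group held 4, from RV at 2 days and from CL cranial, CL caudal, and BM at 1 week after the second dose. The late group held 5, from RV at 2 weeks after the third dose (an injection site and an adjacent site of the mass), from both CL tumors at 1 month, and from BM at 3 weeks (both counted from the second dose). A tumor had 1 library per time point except for RV late, the CL tumors share a host, and time after dosing differs with dog, so that dog, tumor type, and sampling time cannot be told apart. Libraries held 11622444 to 29931125 counts. EPCAM, an epithelial marker, was at 11.5 to 460 CPM (counts divided by the TMM-adjusted library size, a unit used for every level here) in the mammary biopsies, at 1.02 to 2.13 CPM in 3 RV biopsies, and at 13.3 CPM in the RV biopsy at 2 days. That RV biopsy stood apart in its neutrophil markers (2814 CPM summed, against at most 332 CPM in the other 12 libraries). Its epidermal markers summed to 2931 CPM, against 79.9 CPM in the same mass before treatment and 53.1 to 61.7 CPM late. That sum was within the range of the mammary libraries (150 to 5359 CPM). The mean log2 CPM of these markers stood apart, however, at 7.53 against 0.893 to 5.555 in the other 12 libraries. In histology by the study, tumor cells were not definitely seen in that RV biopsy.

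In the RefSeq annotation of the dog assembly UU_Cfam_GSD_1.0, the 8 chain genes lie together on chromosome 12, from DLA-DRA at chr12:2287866-2291417 and HLA-DRB1 at chr12:2306389-2319034 through DLA-DQA1 at chr12:2375650-2382076, DLA-DQB1 at chr12:2399342-2404990, DLA-DOB at chr12:2533116-2538741, DLA-DMB at chr12:2658442-2663494, and DLA-DMA at chr12:2672100-2675661 to DLA-DOA at chr12:2718589-2723244. CD74 is elsewhere, at chr4:59604607-59613287, and CIITA at chr6:32068973-32131721. All are protein-coding. The DR and DQ genes are polymorphic and resemble each other, and how reads that fit more than one gene were counted is not given in the sources used here, so the split of counts among these genes is uncertain.

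CIITA was higher early than before treatment in all 4 tumors and lower late than early in all 4. Of the 10 genes only CIITA and CD74 were higher early in 4 of 4 tumors (10.8% of all genes tested were), and only these were lower late than early in 4 of 4 (17.4% of all genes). In RV it was at 1.80 CPM before treatment, 16.4 CPM at 2 days, and 1.49 and 0.423 CPM at the late injection and adjacent sites. In CL cranial it was at 12.5, 48.5, and 12.9 CPM before, early, and late, and in CL caudal at 2.81, 12.8, and 6.89 CPM. In BM it was at 15.8, 41.4, and 6.93 CPM. The early libraries were the highest of their own tumor in each case, but the groups overlapped. Before treatment the libraries ranged from 1.80 to 15.8 CPM. The lowest value, at the adjacent RV site, rested on 7 counts (95% exact Poisson interval 2.81 to 14.4, which covers counting error only), and the other 12 libraries on 22 or more.

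CD74, whose product is the invariant chain, followed the same course. In RV it was at 303 CPM before treatment, 981 CPM at 2 days, and 151 and 183 CPM at the late injection and adjacent sites. In CL cranial it was at 1118, 2863, and 163 CPM before, early, and late, and in CL caudal at 77.5, 751, and 99.2 CPM. In BM it was at 672, 3350, and 1182 CPM. Every early library was again the highest of its tumor, the groups again overlapped, and the late level in CL cranial was below the level before treatment while that in BM was above it.

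**Figure D1:**
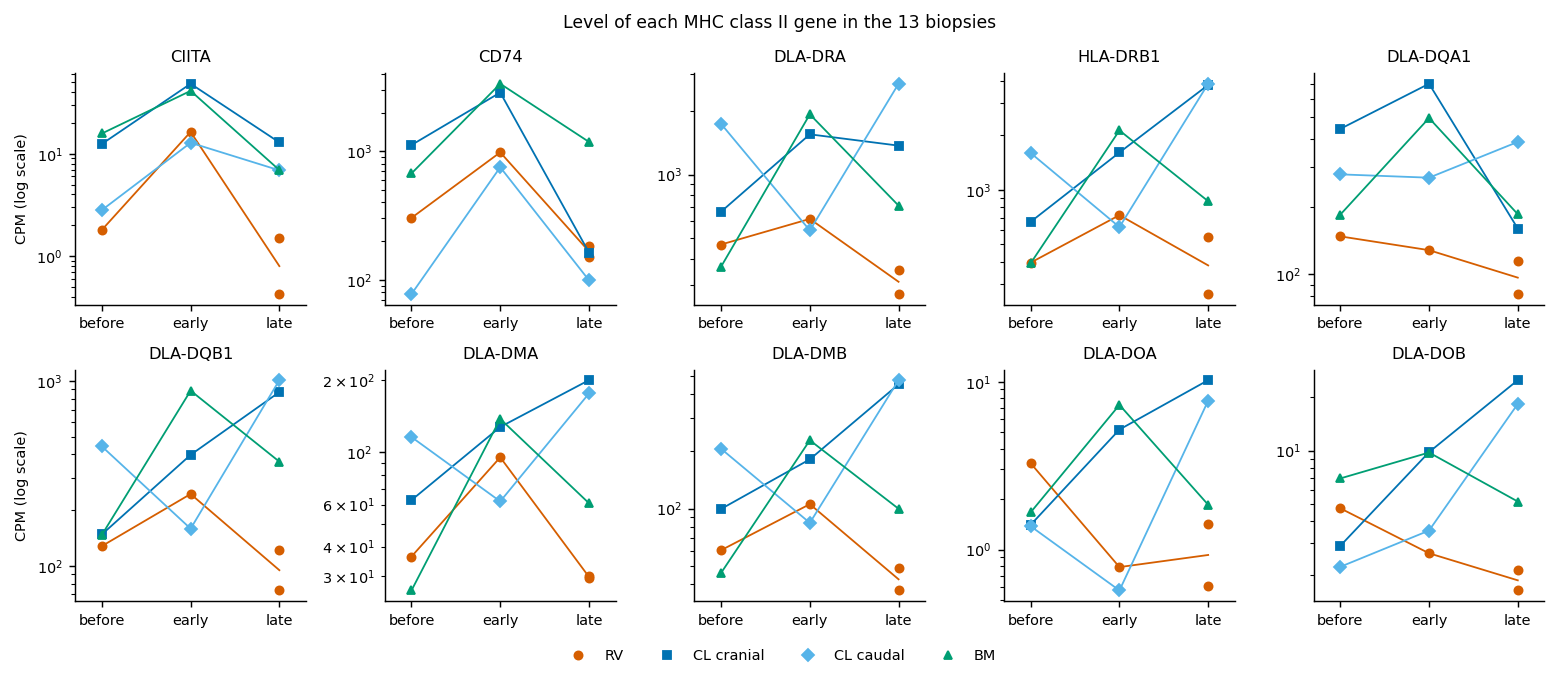
Level of each of the 10 genes in CPM (log scale) in the 13 biopsies, by time group, with 1 colored marker per library and lines joining the libraries of a tumor (through the mean of log values for the late RV sites). CIITA and CD74 peak early in all 4 tumors, whereas 7 of the 8 chain genes of CL caudal are lowest early.

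In edgeR's quasi-likelihood fit over all 20118 genes, with the tumor as a block, the early log2 fold change against before treatment was 2.24 for CIITA (SE 0.64, unadjusted p = 0.0045, Benjamini-Hochberg adjusted p = 0.242) and 2.06 for CD74 (SE 0.57, unadjusted p = 0.0040, adjusted p = 0.233). With this adjustment 0 of the 10 genes were called, against 0.00497% of all genes tested. At an unadjusted p under 0.05 in edgeR, 2 of 10 were higher (CIITA and CD74), against 7.7% of all genes, and DESeq2 called the same 2 (adjusted p = 0.0137 and 0.00572), against 5.05% of the genes to which it gave an adjusted p.

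From early to late, edgeR gave a log2 fold change of -2.49 for CIITA (SE 0.60, adjusted p = 0.0618) and -2.63 for CD74 (SE 0.54, adjusted p = 0.0603). Again 0 of 10 genes were called, against 0.00994% of all genes. At an unadjusted p under 0.05 the same 2 were lower, but 17.7% of all genes were lower at that level, a share close to 2 of 10. DESeq2 called both (adjusted p = 0.000869 for CIITA and 2.54e-05 for CD74), where it called 23.9% of all genes. Both fits counted the late RV sites of the same mass as separate libraries, and the CL tumors of the same dog as separate blocks. With the RV sites summed, the edgeR adjusted p was 0.153 for CIITA and 0.153 for CD74. With the dog as the block it was 0.095 and 0.098. The full course, higher early than before and lower late than early in 4 of 4 tumors, was shown by 2 of 10 genes and by 5.91% of all genes. Within single tumors the late against early log2 changes of CIITA were -4.18 in RV, -2.56 in BM, -1.90 in CL cranial, and -0.89 in CL caudal, and those of CD74 were -2.56, -1.50, -4.13, and -2.92.

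Late against before treatment, the level of CIITA differed by -0.25 and that of CD74 by -0.58 on the log2 scale, with SEs of 0.59 and 0.54. No member was called in edgeR (0 of 10, against 0.0% of all genes; at an unadjusted p under 0.05, 0 of 10 against 4.0%), and DESeq2 called 0 of 10 as well, against 0.0348%. An exact sign-flip test over 4 tumors cannot give a p below 0.125, so agreement of direction in 4 of 4 tumors cannot by itself pass 0.05.

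The DR genes, which encode the most abundant presenting molecule on most antigen-presenting cells, did not follow this course in every tumor. DLA-DRA, the DR alpha chain, was at 466, 616, 355, and 272 CPM in RV (before, early, and the late injection and adjacent sites). In CL cranial it was at 667, 1551, and 1371 CPM, in CL caudal at 1738, 544, and 2693 CPM, and in BM at 366, 1929, and 713 CPM. The early library was therefore the highest of its tumor in RV, CL cranial, and BM and the lowest in CL caudal. HLA-DRB1, the DR beta chain, was at 396, 724, 550, and 265 CPM in RV and at 393, 2130, and 865 CPM in BM. In CL cranial it was at 666, 1608, and 3798 CPM, and in CL caudal at 1597, 622, and 3856 CPM. The late libraries of dog CL thus held the highest HLA-DRB1 levels of the 13, and in CL caudal the early library was the lowest, as for DLA-DRA.

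The DQ genes encode a second presenting molecule. DLA-DQB1 was at 128, 244, 122, and 73.5 CPM in RV, at 148, 398, and 870 CPM in CL cranial, at 442, 159, and 1009 CPM in CL caudal, and at 147, 885, and 366 CPM in BM. Its order across time points was that of HLA-DRB1 in each of the 3 mammary tumors. DLA-DQA1 shared this order in CL caudal and BM but not in CL cranial. It was at 148, 128, 81.8, and 114 CPM in RV, at 443, 702, and 160 CPM in CL cranial, at 278, 269, and 387 CPM in CL caudal, and at 184, 494, and 185 CPM in BM. In CL cranial at 1 month, DLA-DQA1 was at its lowest for that tumor while DLA-DQB1 was at its highest.

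DM, the peptide exchange catalyst, is made of DLA-DMA and DLA-DMB. DLA-DMA was at 36.3, 94.9, 29.6, and 30.1 CPM in RV, at 62.7, 127, and 200.1 CPM in CL cranial, at 115, 61.9, and 176 CPM in CL caudal, and at 26.2, 138, and 60.9 CPM in BM. DLA-DMB was at 60.5, 106, 48.7, and 37.2 CPM in RV, at 99.7, 182, and 450 CPM in CL cranial, at 206, 84.2, and 473 CPM in CL caudal, and at 46.0, 229, and 99.9 CPM in BM. Both were lowest early in CL caudal and highest early in RV and BM, as the DR genes were.

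DO, the modulator of DM, is made mainly in B cells. DLA-DOA and DLA-DOB had few counts, as CIITA did in RV, with 10 to 205 counts of DLA-DOA and 24 to 286 of DLA-DOB per library. DLA-DOA ranged from 0.57 to 10.2 CPM and DLA-DOB from 1.63 to 24.99 CPM. The highest value of each was in CL cranial at 1 month, and in CL caudal the late level (7.71 CPM of DLA-DOA and 18.4 CPM of DLA-DOB) also stood above the level before treatment (1.38 and 2.21 CPM). In RV, by contrast, both genes were lower at both late sites than before treatment.

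Across the 8 chain genes, the median log2 change from before treatment to early was 1.25 in CL cranial (8 of 8 higher) and 2.35 in BM (8 of 8). It was 0.60 in RV (5 of 8) and -1.22 in CL caudal (1 of 8 higher, DLA-DOB). Over all genes tested these medians were 0.01, -0.02, 0.26, and 0.10. In CL caudal the log2 change at 1 week was 3.28 for CD74 and 2.15 for CIITA, while it was -1.68 for DLA-DRA, -1.36 for HLA-DRB1, -1.48 for DLA-DQB1, and -1.29 for DLA-DMB. In the fit over all tumors none of the 8 was called early against before, with log2 fold changes from 0.20 for DLA-DOA to 1.14 for DLA-DMA (edgeR adjusted p = 0.949 and 0.483). The median over all 10 genes was 0.95, against 0.25 over all genes tested; without BM it was 0.25. Late against early the median of the 10 genes was -0.23 and that of the 8 chain genes -0.02, against -0.35 over all genes tested. The first was 0.36 without BM, 0.35 without RV, -0.72 without CL caudal, -0.49 without CL cranial, and 0.06 with no tumor block.

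**Figure D2:**
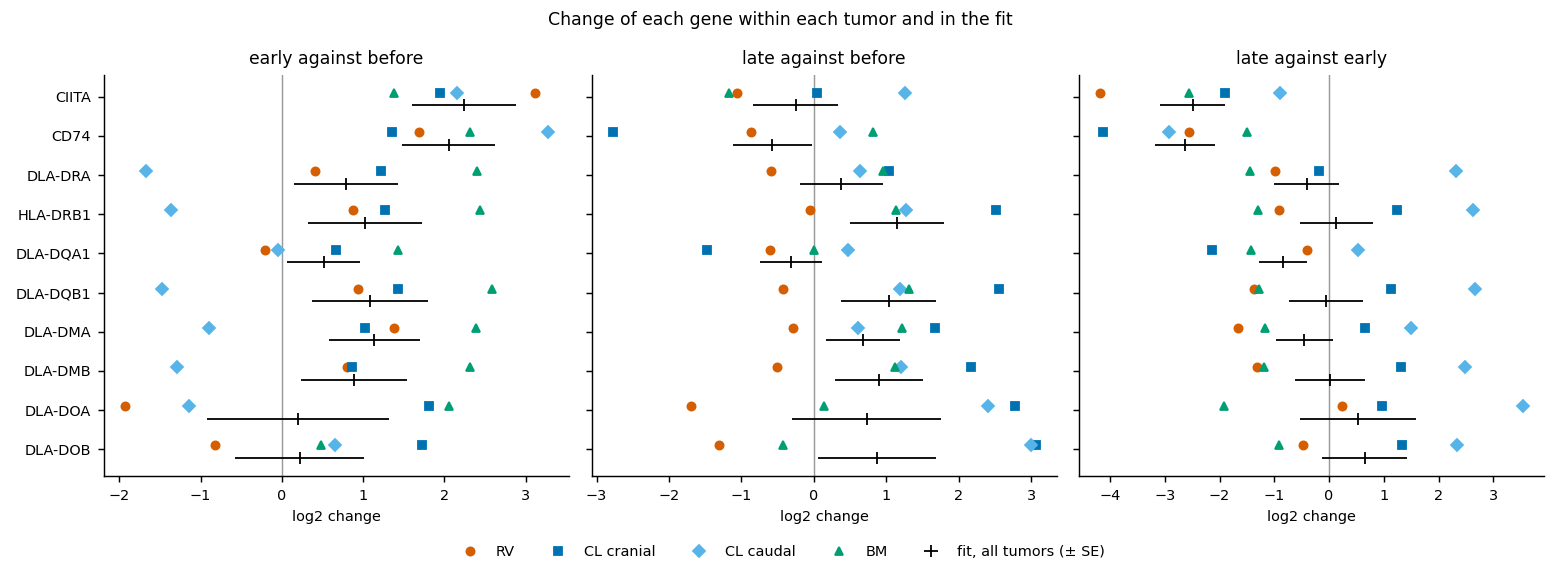
Log2 change of each gene in each tumor (colored markers) and in the fit over all tumors (black bars, log2 fold change ± SE), for early against before, late against before, and late against early. In CL caudal, CIITA and CD74 lie right of 0 early while 7 of the 8 chain genes lie left of it.

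Late against before treatment, the chain genes differed in direction between tumors. In both CL tumors at 1 month, 8 of the 10 genes were higher than before treatment (all but DLA-DQA1 and CD74), where 26.9% of all genes were, and 5 of them, HLA-DRB1, DLA-DQB1, DLA-DMB, DLA-DOA, and DLA-DOB, were higher by over 1 log2 in both, where 3.07% of all genes were. The changes were 2.51 and 1.27 for HLA-DRB1 in CL cranial and CL caudal, 2.56 and 1.19 for DLA-DQB1, 2.17 and 1.20 for DLA-DMB, 2.78 and 2.41 for DLA-DOA, and 3.06 and 2.997 for DLA-DOB. The limit of 1 log2 was chosen after the values were seen, and both tumors are from 1 dog. In BM 8 of 10 genes were higher at 3 weeks, where 9666 of 20118 genes tested were. HLA-DRB1 was higher there by 1.14, DLA-DQB1 by 1.31, and DLA-DMB by 1.12. In RV 9 of 10 genes were lower at both sites, the exception being HLA-DRB1, at 0.47 at the injection site and -0.58 at the adjacent site. The share of all genes lower at both sites is not given here. With the RV sites averaged, 0 of 10 genes were higher, where 10274 of 20118 genes tested were. In the fit, log2 fold changes of the chain genes ran from -0.32 (DLA-DQA1) to 1.15 (HLA-DRB1, SE 0.65), with edgeR adjusted p-values of 0.974 to 0.976. Their median was 0.80, and that of all 10 genes 0.71, against -0.05 over all genes tested. The median of the 10 genes was 1.32 without RV, 0.22 without CL caudal, and 0.18 without CL cranial.

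Ratios of counts in the same library do not depend on the library's depth or scaling. CD74 per count of DLA-DRA stood between 1.38 and 1.85 in the 4 early libraries, a 1.34-fold range. Before treatment it was 0.65 in RV, 1.68 in CL cranial, 1.84 in BM, and 0.0446 in CL caudal. Late it was 0.426 and 0.675 at the RV sites, 1.66 in BM, 0.119 in CL cranial, and 0.0368 in CL caudal. Early tumors were thus alike in this ratio, and the other libraries of dog CL, apart from CL cranial before treatment, were far below them; over 13 libraries the ratio spanned 50.1-fold. CIITA per count of DLA-DRA was likewise between 0.0214 and 0.0313 early, a 1.46-fold range, against 0.00162 to 0.0432 before and 0.00156 to 0.00973 late. The ratios are not adjusted for the gene-density difference between libraries described below. It was -1.41 log2 in CL caudal before, -1.12 in CL caudal late, and -0.43 in CL cranial late, where CD74 per count of DLA-DRA was lowest. In RV early it was -0.85, with a ratio of 1.59. Its part in the ratios was not tested.

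Ratios between chain genes ranged from close to wide. HLA-DRB1 per count of DLA-DRA was between 0.849 and 1.18 before and early, and between 0.978 and 2.77 late, with the highest value in CL cranial. DLA-DMA per count of DLA-DMB was between 0.372 and 0.899. DLA-DQA1 per count of DLA-DQB1 varied more, at 2.995, 1.76, and 0.184 in CL cranial before, early, and late and at 0.629, 1.69, and 0.384 in CL caudal. These 6 libraries, all from dog CL, hold both ends of the 16.3-fold range seen over 13 libraries. DLA-DOB per count of DLA-DMB spanned 14.1-fold, from 0.0107 in CL caudal before to 0.152 in BM before.

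**Figure D3:**
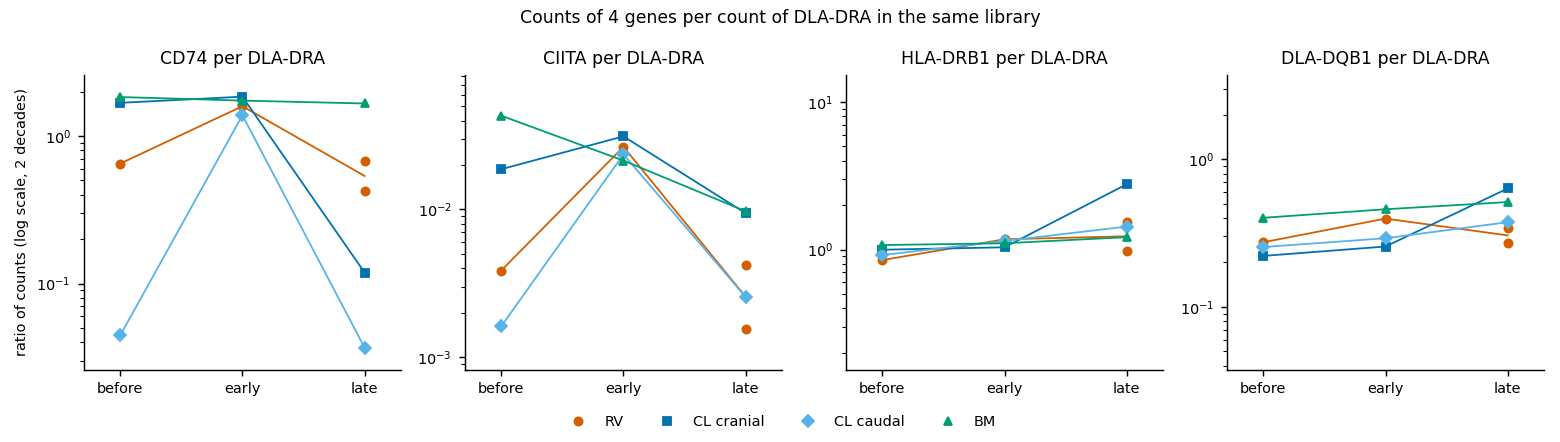
Counts of CD74, CIITA, HLA-DRB1, and DLA-DQB1 per count of DLA-DRA in the same library (log scale, each panel spanning the same number of decades), by time group and tumor. CD74 per DLA-DRA is between 1.38 and 1.85 early and is 0.0446 and 0.0368 in CL caudal before and late.

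Correlations of log2 CPM over the 13 libraries are given as a description, since libraries of a tumor share a host and a mass. Among DLA-DRA, HLA-DRB1, DLA-DQB1, DLA-DMA, and DLA-DMB the 10 pairs had a Pearson's r of 0.91 to 0.98, and of 0.90 to 0.99 after each tumor was centred on its own mean. CD74 correlated with the 8 chain genes at -0.08 to 0.49 (-0.28 to 0.68 after centring) and CIITA with them at 0.42 to 0.68 (0.11 to 0.46 after centring). CIITA and CD74 correlated with each other at 0.73. The genes most like CIITA were ARHGAP27 (r = 0.96), ABI3 (0.96), MARK2 (0.95), TNS3 (0.95), and SMARCA4 (0.95), and those most like CD74 were SLC48A1 (0.98), ADCY4 (0.97), SH3TC1 (0.97), RNPEPL1 (0.96), and SLAMF8 (0.96). These were the 5 with the highest r over 13 libraries among the genes tested. The 10 genes themselves and symbols that start with LOC were left out of that ranking.

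**Figure D4:**
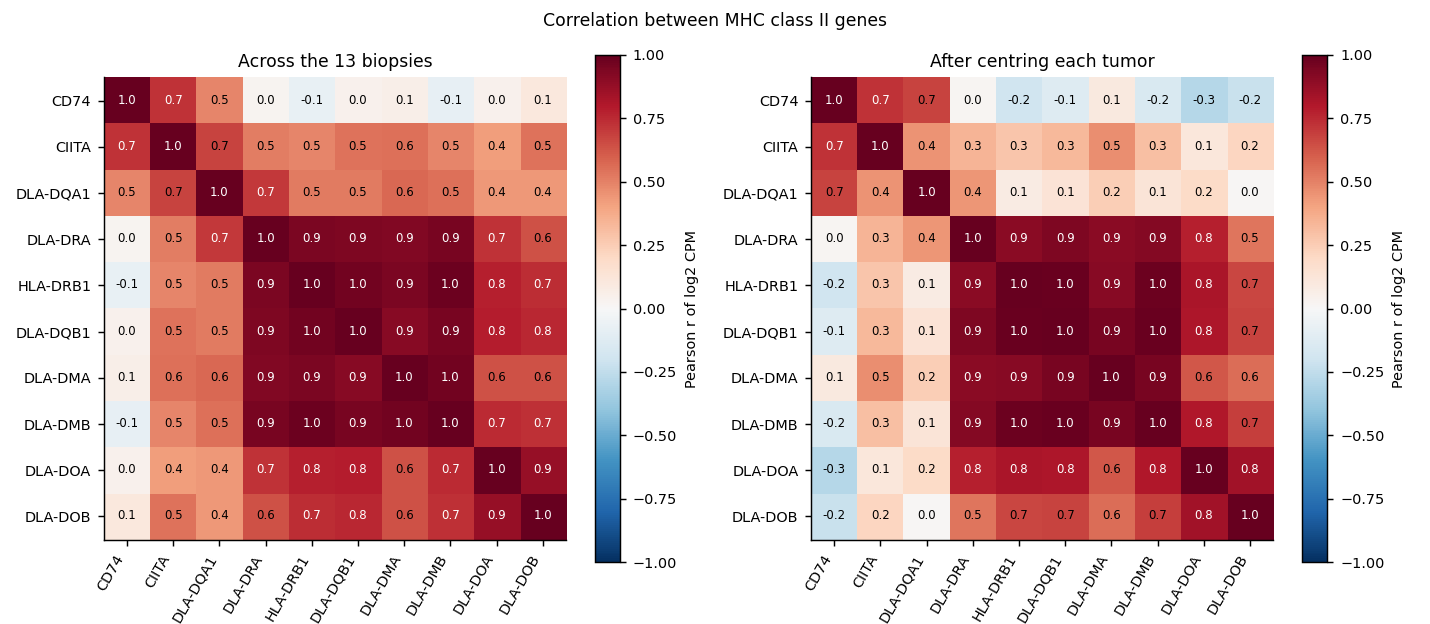
Pearson's r between the 10 genes over 13 libraries, on log2 CPM as measured and after centring each tumor (color scale from -1 to 1). DLA-DRA, HLA-DRB1, DLA-DQB1, DLA-DMA, and DLA-DMB form a block of 0.91 to 0.98, and CD74 lies between -0.08 and 0.49 with the chain genes.

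Differences in level among tumors were tested with edgeR's F test of the tumor terms. It called 1 of 10 genes, CD74 (adjusted p = 0.0403), and 7.91% of all genes, so the share among the 10 was near that of all genes. CIITA had an adjusted p of 0.0692, DLA-DQA1 of 0.140, and the other 7 of 0.185 to 0.669. The call for CD74 was lost without BM (adjusted p = 0.129), without CL caudal (0.202), and without RV (0.131), with the dog as the block (0.213), with a single or a summed late RV library (0.0927 to 0.106), and with the gene-density offset described next (0.0641). DESeq2 called 3 of 10 (CD74, CIITA, and DLA-DQA1), against 28.0% of all genes.

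The libraries also differed in how genes in gene-dense regions stood relative to those in gene-sparse regions, measured by the number of coding genes within 500000 bases. This difference was -1.41 log2 in CL caudal before treatment, -1.12 in CL caudal late, -0.85 in RV early, -0.43 in CL cranial late, and 0.17 to 0.97 in the other 9 libraries. It correlated with CD74 at 0.66, with CIITA at 0.17, and with the chain genes at -0.47 to 0.05, over 13 libraries. With an offset for gene density, added after the data were seen, CD74 differed by 1.84 early against before and -2.45 late against early, and CIITA by 2.15 and -2.40. The origin of the density difference was not tested.

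Lists of genes that act around class II were counted in the same fit. Of 10 antigen loading and lysosomal genes measured, 0 were called early against before in edgeR and 6 were higher at an unadjusted p under 0.05, with a median log2 fold change of 1.69, and late against early 5 were lower and 1 higher. Over all genes, 7.7% were higher early and 17.7% lower late against early at that level. The cysteine proteases LGMN (1.60, SE 0.35, adjusted p = 0.147) and CTSH (1.85, SE 0.41, adjusted p = 0.154) and the cathepsins CTSB (1.79) and CTSD (2.27) were among them. Of 9 genes from interferon gamma to CIITA, 4 were higher at that level early and 4 lower late against early, and those higher early included SOCS3, a feedback inhibitor, at 3.17 (edgeR adjusted p = 0.142), the transcription factor IRF1 at 2.10 (0.154), and the receptor chain IFNGR2 at 0.87 (0.455). IFNG itself had few counts and differed in direction between tumors. It had 0 counts in RV before and at both late RV sites, and 48 counts in RV early. Before, early, and late it had 30, 62, and 16 counts in CL cranial and 0, 3, and 4 in CL caudal. In BM it had 32, 2, and 14 counts, so it was lower early there, where CIITA was higher. Of the 7 factors that bind class II promoters with CIITA, 1 was higher early at an unadjusted p under 0.05 (RFXANK, 0.92, adjusted p = 0.452), and their median was -0.21. Of 15 MHC class I genes measured, 8 were higher early at that level, among them NLRC5, the class I counterpart of CIITA (3.21, adjusted p = 0.142), and 7 were lower late against early. None of these genes passed the adjusted threshold early.

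Markers of the cells that carry class II also differed between time points, and in bulk biopsies fewer cells of a type and less RNA per cell cannot be told apart. The summed level of 10 macrophage markers was 288 to 729 CPM before, 1027 to 3384 CPM early, and 337 to 1284 CPM late, with 9 of 10 higher early at an unadjusted p under 0.05 in edgeR and none of the 10 at 0 counts in any library. For 5 pan-leukocyte markers it was 149 to 283 CPM before, 372 to 1125 CPM early, and 144 to 477 CPM late, with 5 of 5 higher at that level. For 10 dendritic cell markers it was 47.9 to 151 CPM, 119 to 267 CPM, and 102 to 660 CPM. CD1A6 was at 0 counts in every library, and 4 of 9 tested were higher early at that level. The 660 CPM was in BM, and the other late libraries were at 102 to 188 CPM. The mean log2 CPM of these markers in BM was 4.22 early and 3.27 late. Late against early 0 of 9 were higher in the fit (median -0.93), where 38.8% of all genes tested were. For 9 B cell markers the sum was 16.2 to 65.3 CPM, 33.9 to 97.4 CPM, and 9.98 to 129 CPM. MS4A1 was at 0 counts in CL caudal before, and 3 of 9 were higher early at that level. For 10 T cell markers it was 17.5 to 46.6 CPM, 40.5 to 274 CPM, and 44.6 to 136 CPM, with 6 of 10 higher early at that level. Of 7 neutrophil markers tested, 3 were. Over all genes, 7.7% were higher early at that level, and none of these markers was called in edgeR after adjustment. Over the 13 libraries, log2 CPM of CD74 correlated with the mean log2 CPM of the macrophage markers at a Pearson's r of 0.77 and with that of the dendritic cell markers at 0.79. After each tumor was centred on its own mean, these values for CD74 were 0.82 and 0.66. CIITA correlated with the dendritic cell mean at 0.87, the B cell mean at 0.85, the mammary epithelium mean at 0.81, and the macrophage mean at 0.72. After each tumor was centred on its own mean, these values for CIITA were 0.88, 0.83, 0.60, and 0.69, in the same order. Markers of other cells also correlated with CIITA, neutrophils at 0.56 (0.84 centred) and epidermis at 0.55 (0.72 centred). With the leukocyte mean it correlated at 0.72 (0.82 centred), with the T cell mean at 0.60 (0.54), and with the mesenchymal mean at -0.30 (-0.435). DLA-DRA correlated with the macrophage mean at 0.48 and the leukocyte mean at 0.61. Tumor and stromal markers differed as well. The summed level of 10 mesenchymal markers was 34590 CPM in RV before, 3605 CPM early, and 23210 and 38450 CPM late, and 2314, 32460, and 110900 CPM in BM before, early, and late. That of 10 epithelial markers in BM was 3569, 2286, and 217 CPM. The part of these cell types in the class II values was not tested.

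**Figure D5:**
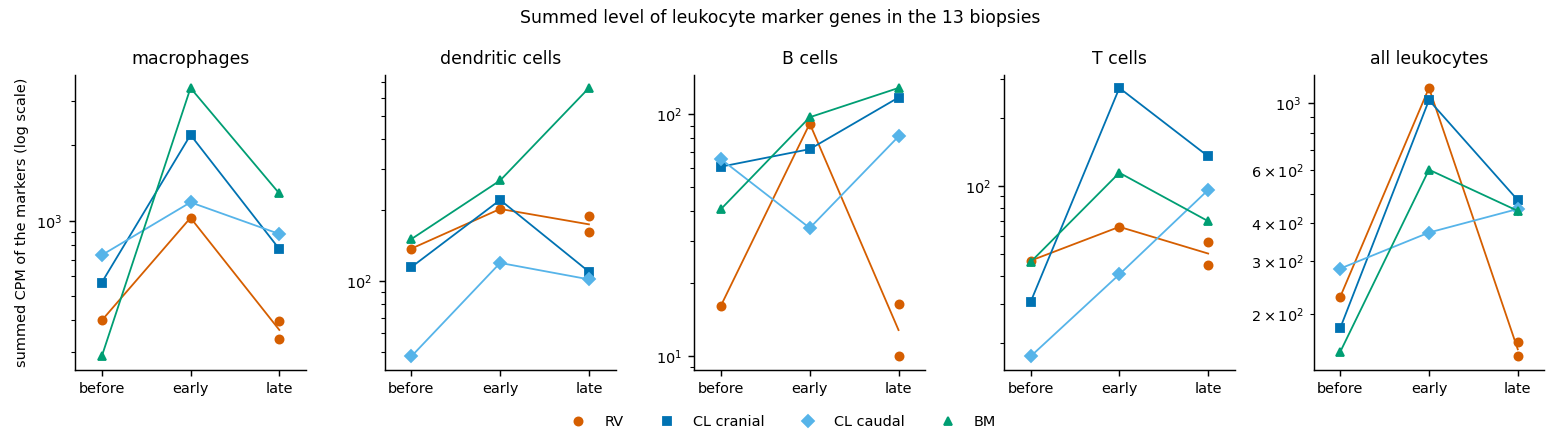
Summed CPM (log scale) of marker genes of leukocyte types in the 13 biopsies, by time group and tumor. The macrophage markers are at 1027 to 3384 CPM in the 4 early libraries and at 288 to 729 CPM in the 4 before treatment.

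In CL caudal, 7 of the 10 macrophage markers were higher early than before treatment and 3 were lower, without replicates in that tumor. The log2 changes of the 7 ran from 0.42 for the mannose receptor MRC1 to 4.03 for the scavenger receptor MARCO, and the 3 others were at -0.03 (MSR1), -0.35 (C1QA), and -1.37 (AIF1). AIF1, a calcium-binding protein of macrophages, thus went against most of its list there. It was at 96.8 CPM before, 37.4 CPM early, and 116 CPM late, in the order of DLA-DRA, while CD163, a scavenger receptor, was at 62.0, 226, and 64.9 CPM. AIF1 and CD163 were singled out after their values were seen. Early against before, 10 of 10 markers were higher in CL cranial and in BM, and 6 of 10 in RV.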

How the data were processed

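RNA was measured by strand-specific RNA-seq in 13 biopsies of 4 tumors. Reads were aligned by the authors in Strand NGS (CanFam4.0), who deposited unnormalized read counts for each symbol; the counting rule and annotation release are not given in the sources used here. Of the symbols, 98.0% matched RefSeq (UU_Cfam_GSD_1.0), whose positions are given.

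Counts were filtered with filterByExpr (minimum count 10), TMM-normalized, and fitted in edgeR 4.0.16 (R 4.3.3; quasi-likelihood, robust) with tumor and time group over all genes, with Benjamini-Hochberg adjustment and a threshold of 0.05. Log2 CPM used a prior count of 2. No pair of libraries agreed within sampling noise (smallest chi-square per degree of freedom 44.5). The block was the tumor, as biopsies of 1 mass. Deviations of same-tumor libraries from the group means correlated at a mean of 0.587 for before and late, 0.229 for before and early, and 0.191 for early and late (-0.199 to -0.0651 between libraries of different tumors).

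Every member was named; likeness was ranked by Pearson's r, and other genes come from lists written from general knowledge, of which 1 gene is not reported here by name. Members and lists were chosen with earlier results of these data known. Alternatives were DESeq2 1.42.0 and its size factors, no filter, no block, the dog as block, each tumor left out, other late RV choices, a prior count of 0.5, and a gene-density offset. The fit was also run on counts simulated without tumor differences, and the outcome is not given here. Depth limits genes of few counts, and replicates within a tumor are lacking. Promoter and protein sequences were not used here.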

Additional observations from a re-analysis of the deposited data

Results flagged for a closer look

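In 30 groups of values (10 genes at 3 times), 2 had a single library far from the rest, against 1.5 expected by chance. DLA-DQB1 before treatment was at 442 CPM in CL caudal, where the other 3 libraries lay between 128 and 148 CPM. CD74 late was at 1182 CPM in BM, where the other 4 libraries lay between 99.2 and 183 CPM.

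For 7 genes the late change from before treatment went opposite ways in dogs CL and RV, up in both CL tumors and down at both RV sites. Of all genes tested, 26.9% were up in both CL tumors. The share also down at both RV sites is not given here, so the count of 7 is a description only. The log2 changes in CL cranial and CL caudal were 0.05 and 1.26 for CIITA, 1.04 and 0.63 for DLA-DRA, 2.56 and 1.19 for DLA-DQB1, 1.67 and 0.61 for DLA-DMA, 2.17 and 1.20 for DLA-DMB, 2.78 and 2.41 for DLA-DOA, and 3.06 and 2.997 for DLA-DOB. At the RV sites they ran from -0.07 (DLA-DQB1, injection site) to -2.26 (DLA-DOA, adjacent site). The difference between the dogs was not tested, and dog, tumor type, and sampling time cannot be told apart.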

How the results depend on the processing

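CIITA and CD74 kept their direction early against before and late against early in all 13 alternatives. The early log2 fold change ranged from 1.78 to 2.47 for CIITA (adjusted p 0.0137 to 0.603) and from 1.67 to 2.40 for CD74 (0.00572 to 0.656), and the late against early one from -2.98 to -1.70 (0.000869 to 0.281) and from -2.95 to -2.44 (2.54e-05 to 0.275). The number of members called moved to 2 early with DESeq2, and to 2 late against early with DESeq2 and with no filter (adjusted p = 0.0409 for CIITA and 0.0307 for CD74). For differences among tumors it was 2 with no filter, 3 with DESeq2, 0 with the dog as block, with the late RV sites summed, with either site alone, and with the density offset, and 0 to 1 with a tumor left out. The cause was not tested.

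Signs of small changes were not stable. Early against before, DLA-DOA was -0.018 with the density offset and -0.93 to 1.37 with a tumor left out, and DLA-DOB -0.11 to 0.90. CIITA late against before was 0.012 with the injection site only and -0.75 to 0.079 with a tumor left out. Late against early, DLA-DQB1 was 0.001 with no filter, 0.21 without the replicate block, 0.17 with sites summed, 0.22 and 0.10 with the injection or adjacent site, 0.044 with the density offset, and -0.59 to 0.57 with a tumor left out; DLA-DMB was -0.02 with DESeq2 or its size factors and -0.52 to 0.66 with a tumor left out. With a tumor left out, DLA-DRA was -0.94 to 0.15, HLA-DRB1 -0.38 to 0.80, DLA-DMA -0.85 to 0.15, and DLA-DOA -0.39 to 1.60. Without the block no call changed in the time comparisons, where the main fit had made none. Early against before, however, the members at an unadjusted p under 0.05 in edgeR went from 2 to 0. The edgeR adjusted p without the block was 0.454 for CIITA and 0.445 for CD74. With a prior count of 0.5 no change within a tumor turned sign, and with DESeq2 size factors 1 did, DLA-DQA1 late against before in BM (0.006 to -0.074).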
